A study of Mus musculus with 4 samples.

Results

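Ubiquitin-specific proteases (USPs) were described in bone-marrow-derived macrophages of C57BL/6J mice, as polyA RNA in 1 group of 4 biological replicate libraries. Members were the genes whose symbol starts with Usp and a digit and that have a protein-coding transcript, without the 3 genes Usp18, Usp9x and Usp9y. This gave 53 genes among the 55536 measured, out of 59 symbols of that form. The sample descriptions state that the macrophages, which grow in culture from marrow cells, received 100 ng/mL Lipid A for 12 h, then 12 h of washout, then 100 ng/mL Lipid A for 60 min. Lipid A is the lipopolysaccharide anchor, and TLR4 is its receptor. The source names instead give lipoprotein A as the agent, and they do not mention a washout. All 4 libraries carry the same donor record, so the p-values below measure the spread between these libraries. Cells without the repeat exposure are not analysed here, so the levels are descriptions of 1 state and not responses.

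USPs are the largest family of deubiquitinases, the enzymes that cut the small protein ubiquitin from other proteins or from chains of itself. Most are cysteine proteases: a cysteine near the start of the catalytic domain, in a short conserved stretch called the Cys box, attacks the bond to ubiquitin. In macrophages, ubiquitin chains on TRAF adaptors and kinases carry the signal from Toll-like receptors, and several USPs are known to edit or remove them.

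A USP needs the conserved cysteine to act as a protease, though having it is not enough. Its codon is shown here for members that the results turn on and for Usp53 and Usp39, which are known to be atypical. Each run is 45 bases of annotated coding sequence, 5′ to 3′, from the GENCODE M21 transcripts (mm10), and the capitals mark the codon in the place of the catalytic cysteine.
Usp25: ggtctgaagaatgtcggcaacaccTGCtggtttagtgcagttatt
Usp15: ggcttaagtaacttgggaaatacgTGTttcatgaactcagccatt
Usp4: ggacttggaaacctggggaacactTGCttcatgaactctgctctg
Usp8: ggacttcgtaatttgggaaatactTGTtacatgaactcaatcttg
Usp12: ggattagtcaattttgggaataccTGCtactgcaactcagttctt
Usp46: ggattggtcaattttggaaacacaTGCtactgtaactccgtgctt
Usp5: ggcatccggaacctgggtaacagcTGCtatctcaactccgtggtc
Usp7: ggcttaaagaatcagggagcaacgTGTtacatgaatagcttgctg
Usp53: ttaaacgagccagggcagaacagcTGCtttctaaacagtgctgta
Usp39: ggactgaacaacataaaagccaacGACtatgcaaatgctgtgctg
The codon lies at chr16:77050537-77050539 on the plus strand in Usp25, at chr10:123146815-123146817 on the minus strand in Usp15 and at chr16:8707689-8707691 on the minus strand in Usp7. Of the 39 members with at least 1 TPM in each library, 37 had exactly 1 match to the Cys box pattern in their principal coding transcript. The codon was TGC in 21 of them and TGT in 16. The other members were Usp39, a splicing factor known to lack the cysteine, whose closest stretch has GAC there, and Usp6nl, a Rab GTPase-activating protein that carries the family's prefix without being a protease. Coding sequences of the 39 ran from 366 codons in Usp46 to 3582 codons.

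TPM is an abundance corrected for transcript length and for sequencing depth. At 1 TPM or more in each library, 39 of 53 members were detected, or 73.6%, beside 44.1% of all protein-coding genes (9704 of 22028). The detected members had a median of 13.0 TPM, against 18.4 TPM for all detected protein-coding genes, and 15 of the 39 stood above that median. Their summed TPM was 892 ± 69.0 (SD, n = 4), of which the 10 most abundant members held 68.5 ± 1.06%. Of the members, 20 had at least 10 TPM in each library and 7 had a mean of at least 50 TPM.

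Each library held between 23167140 and 41453162 expected counts on genes. Of the cell type markers, all 8 of macrophages were detected, with a summed level of 16689 to 19742 TPM. None of the listed T cell, B cell, NK cell, erythroid or stromal markers reached 1 TPM in each library. The stromal Col1a1 and Col1a2 passed 1 TPM in replicate 3 only, at 1.09 and 1.49 TPM. Among 5 neutrophil markers only S100a8 was detected, at 49.3 and 34.0 TPM in replicates 1 and 3 and 5.58 and 5.69 TPM in replicates 2 and 4. It was called variable between libraries (adjusted p = 4.96e-06, edgeR deviance test described below). Camp had 1.68, 0.26, 0.63 and 0.59 TPM in replicates 1 to 4 and Elane 0.69, 0, 0.14 and 0.06. Mpo had 0.48, 0.03, 0.19 and 0.62 TPM, while Ly6g was at 0 in every library. The summed neutrophil list ran from 5.87 to 52.1 TPM, and its part in the USP levels was not tested.

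The members known for immune signalling included the most abundant of the family. Usp25 (ENSMUSG00000022867.10, chromosome 16, 77013706 to 77116780, plus strand), which acts on TRAF adaptors in Toll-like receptor and interleukin-17 signalling, had 135, 122, 103 and 78.8 TPM in replicates 1, 2, 3 and 4. Usp15 (ENSMUSG00000020124.10, chromosome 10, 123105006 to 123196995, minus strand), which acts on TGF-beta receptor signalling and on IkB-alpha, had 94.7, 114, 121 and 76.0 TPM. The ranges of Usp25 and Usp15 overlapped, Usp25 being higher in 3 of 4 libraries, and replicate 4 was the lowest library for both. Usp4, a close relative of Usp15 that removes chains from TRAF6 and TAK1, had 47.3, 62.3, 53.7 and 62.2 TPM, below Usp15 in every library. Usp48, which limits turnover of nuclear RelA in human cells, had 23.4 ± 6.82 TPM (SD, n = 4), with 27.6 and 30.7 in replicates 2 and 3 and 16.8 and 18.4 in replicates 1 and 4. Usp21, which acts on RIPK1, had 13.4 ± 0.84 TPM, and Usp38, which acts on TBK1, had 13.0 ± 1.48 TPM. Usp20, a relative of Usp33 that acts on STING, had 2.43 ± 0.51 TPM, Usp31, described as a brake on NF-kB in human cells, 2.31 ± 0.52 TPM and Usp2, which stabilises cyclin D1, 2.08 ± 0.64 TPM. Usp27x, an X-linked relative of Usp22, was the only one of these 10 members below 1 TPM in some libraries, at 0.93, 1.08, 1.38 and 0.67 TPM.

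Members of endosomes and organelles were all detected, 7 of 7. Usp8, which acts with Stam on receptors at endosomes, had 63.6, 72.5, 78.1 and 66.7 TPM and was the third most abundant member. Its range did not overlap with that of Usp12, the next in order. In the second quantification the ranges did overlap, at 44.6 to 73.6 TPM for Usp8 and 40.3 to 56.2 TPM for Usp12. Usp19, anchored in the endoplasmic reticulum, had 36.1, 45.3, 36.6 and 45.1 TPM. Usp33, Usp32, a USP of the Golgi and late endosomes, and Usp30, the mitochondrial USP that counters Parkin, had 14.3 ± 2.48, 10.7 ± 2.07 and 6.85 ± 1.06 TPM (SD, n = 4). Usp35, also described at mitochondria, had 2.46, 6.74, 3.96 and 3.44 TPM, with replicate 2 above the rest, and Usp6nl had 3.36 ± 0.75 TPM.

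Usp5 and Usp14 act at the end of the pathway, Usp5 by taking apart free ubiquitin chains and Usp14 by trimming chains on the proteasome. Usp5 had 39.5, 50.1, 53.8 and 62.3 TPM, and Usp14 had 44.3, 47.3, 58.6 and 51.0 TPM. Their ranges overlapped, with each higher in 2 of 4 libraries. Usp13, the near relative of Usp5, had 1 count in all libraries together. Usp12 and Usp46, which need the partner Wdr48 for activity, had 57.4 ± 2.27 and 3.54 ± 0.45 TPM. Usp12 had 54.2, 59.0, 57.3 and 59.1 TPM, a coefficient of variation (CV) of 3.95%, the lowest of the detected members by this measure. By CPM its CV was 5.73%, next to Usp21 at 5.64%, and in the second quantification it was 16.4%, above those of Usp31, Usp36 and Usp28. Its levels there were 43.4, 40.3, 56.2 and 54.6 TPM in replicates 1 to 4.

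Of 16 members known for chromatin, DNA repair and the cell cycle, 13 were detected. Usp7 (ENSMUSG00000022710.17, chromosome 16, 8689595 to 8792308, minus strand), which acts on Mdm2 and p53, had 36.3, 36.0, 43.7 and 38.1 TPM. Usp16, which removes ubiquitin from histones, had 31.1, 43.3, 35.9 and 29.1 TPM. Usp47, a relative of Usp7 that acts on DNA polymerase beta, had 27.1 ± 3.33 TPM (SD, n = 4), Usp3, a histone deubiquitinase, 23.6 ± 2.61 TPM and Usp22, the enzyme of the SAGA complex, 21.9 ± 2.20 TPM. Usp1, which acts on Fancd2 and PCNA, had 14.9 ± 1.48 TPM. Usp10, a p53 deubiquitinase that binds G3bp1, had 10.9, 10.2, 20.7 and 13.0 TPM, with replicate 3 the highest. The rest were lower: Usp45 had 6.36 ± 0.50, Usp37 4.41 ± 0.63, Usp42 4.41 ± 0.97, Usp11 3.64 ± 1.25, Usp36 3.00 ± 0.16 and Usp28 2.77 ± 0.41 TPM. Usp49, a histone deubiquitinase, had 0.97, 1.35, 1.14 and 1.56 TPM and so missed the detection rule in replicate 1. Usp44, of the mitotic checkpoint, had 5 counts in all, and Usp51 had none.

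Of the members with an atypical catalytic site, Usp39 had 23.3 ± 3.05 TPM, Usp53, long described as inactive, 1.86 ± 0.73 TPM and Usp54 1.35 ± 0.21 TPM (SD, n = 4). Usp50 had 28 counts in all, none of its TPM in a coding transcript. The large proteases Usp34, a regulator of Axin, Usp24 and Usp40 had 11.8 ± 3.89, 10.1 ± 1.07 and 7.54 ± 0.69 TPM. No germline member was detected: Usp26 and Usp17la had 7 and 1 counts, and Usp29 and the other Usp17l genes had none. In all, 7 members had no count in any library of the first quantification (Usp17lb, Usp17lc, Usp17ld, Usp17le, Usp29, Usp43 and Usp51). This allows up to 0.0724 CPM (expected counts scaled to library size) in the deepest library and 0.129 CPM in the shallowest, counting error only. In the second quantification Usp29 had 0.00804, 0.00433, 0.0421 and 0.0253 TPM in replicates 1 to 4, and Usp17lc had 0.0166 TPM in replicate 2. The Usp17l genes are near copies of each other, so how the authors' counting would split reads among them is uncertain.

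**Figure D1:**
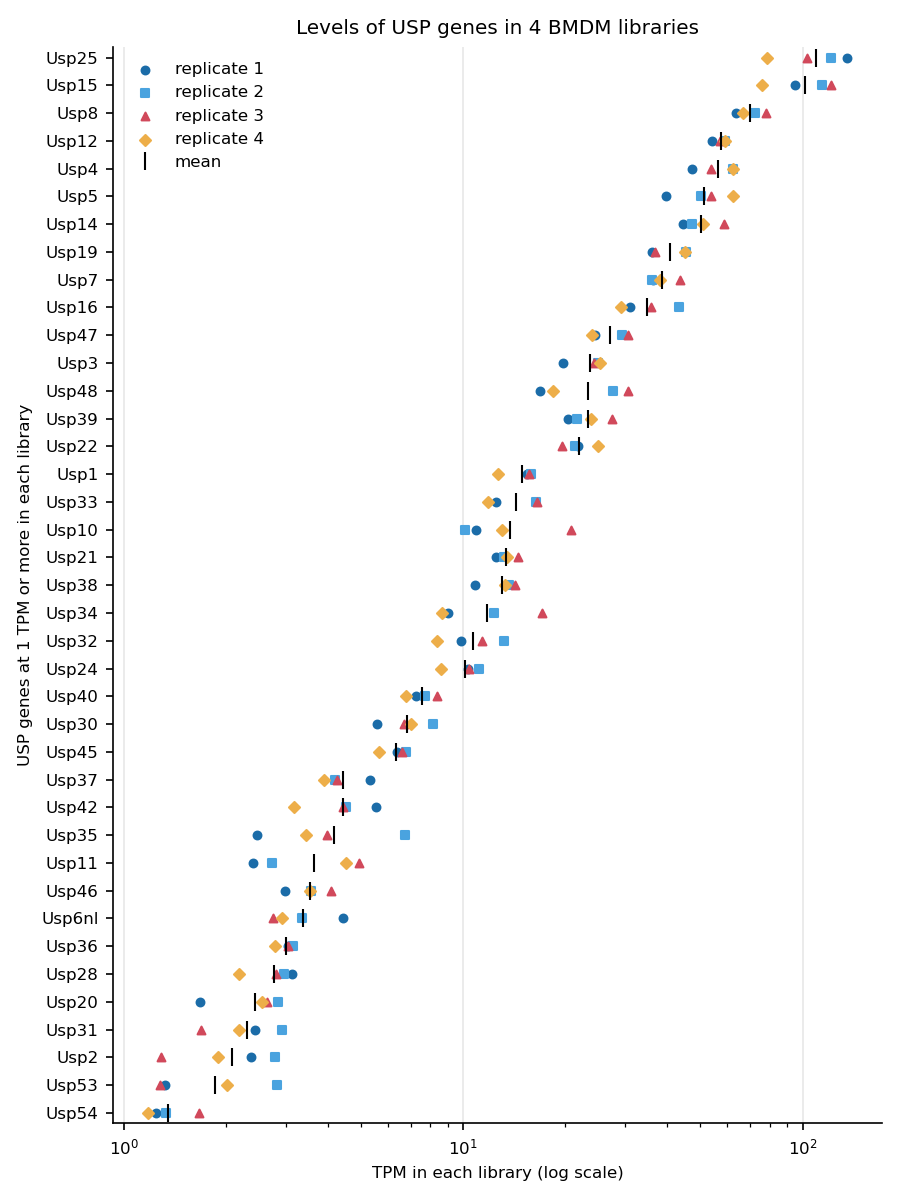
TPM (log axis) of the 39 USP genes with at least 1 TPM in each library, by falling mean; points are the 4 libraries and bars the means. Usp25 and Usp15 stand at the top, Usp12 has the tightest points in this quantification, and Usp35 the widest.

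Ordered by mean TPM, the 39 detected members make 38 neighbouring pairs, and the ranges of 34 pairs overlapped. In 8 pairs the order was the same in all 4 libraries. In the first quantification, steps without overlap lay between Usp8 and Usp12, Usp22 and Usp1, Usp24 and Usp40, and Usp45 and Usp37. In the second the ranges overlapped in each of these pairs. Within each library the order still held there, except that Usp45 was below Usp37 in replicate 1. Across the 39 members Spearman's rho ran from 0.969 to 0.985 over the library pairs (genes share each library and are not replicates).

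Whether any member varied between libraries more than genes of its abundance was tested with edgeR's dispersion trend (deviance, Benjamini-Hochberg over all genes). Of the 41 members tested 0 were called at an adjusted p under 0.05, beside a background of 2.61% of 11679 genes. At an unadjusted p under 0.05 the test picked 0 members, beside 7.79% of all genes, and with DESeq2's dispersion trend it also called 0 members. The smallest unadjusted p of a member was 0.126 and the smallest adjusted p 0.982. In the first quantification the detected members had a median CV of 14.7%, against 16.5% for all detected protein-coding genes. Most detected members had a higher CV in the second, where the CV of all genes was not taken. The members with the highest CV were Usp35 at 44.2%, Usp53 at 39.1%, Usp10 at 35.3%, Usp11 at 34.5% and Usp34 at 33.1%. By CPM, the counts behind the test, the CV was 39.1% for Usp35, 42.0% for Usp53 and 37.6% for Usp11, but 9.13% for Usp10 and 14.9% for Usp34. In the second quantification Usp11 was the highest at 49.3%. There Usp34 had 47.6%, Usp10 39.4%, Usp35 31.6% and Usp53 25.9%. Usp34 had 9.02, 12.3, 17.1 and 8.66 TPM, and Usp53 had 1.32, 2.83, 1.28 and 2.02 TPM.

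Replicates 3 and 4 were deposited with 4 read files each and replicates 1 and 2 with 6. The libraries with 4 files were also the deeper ones, so depth and file number cannot be told apart. In edgeR's quasi-likelihood test of 4 over 6 read files, 0 of 41 members and 0.0% of 12667 genes passed an adjusted p of 0.05, and DESeq2 called 0 members and 103 genes. At an unadjusted p under 0.05, 1 member passed in edgeR, beside 7.08% of all genes. That member, named after its values were seen, was Usp11, a DNA repair protease on the X chromosome, with 4.92 and 4.50 TPM in replicates 3 and 4 against 2.40 and 2.74 TPM in replicates 1 and 2. Its log2 fold change was 0.85 (unadjusted p = 0.006 and adjusted p = 0.636, edgeR). Usp2 and Usp25 had the lowest log2 fold changes, -0.54 and -0.53, and 20 of 41 members were below 0.

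The TPM of a gene is the sum over its annotated transcripts, and the types of those transcripts differed among members. Protein-coding transcripts held a median of 94.0% of a detected member's TPM, against 97.4% over all detected protein-coding genes. They held under 50% in 2 of 39 members, or 5.13%, beside a background of 5.68% of 9704 genes. These were Usp15, at 5.61 ± 0.62% (SD, n = 4), and Usp7, at 49.7 ± 2.97%. Usp7 lay at the line: without replicate 1 or 3 its share was 50.8% or 50.2%, and in the second quantification it was 57.1 ± 5.67%. In the second quantification Usp35, at 46.5 ± 6.12%, and Usp15 were the members under 50%, beside 6.66% of genes. At least 90% was coding in 23 members. Just above the 50% line stood Usp16 at 54.4 ± 5.54%, Usp10 at 57.1 ± 8.08% and Usp35 at 57.9 ± 9.01%.

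**Figure D2:**
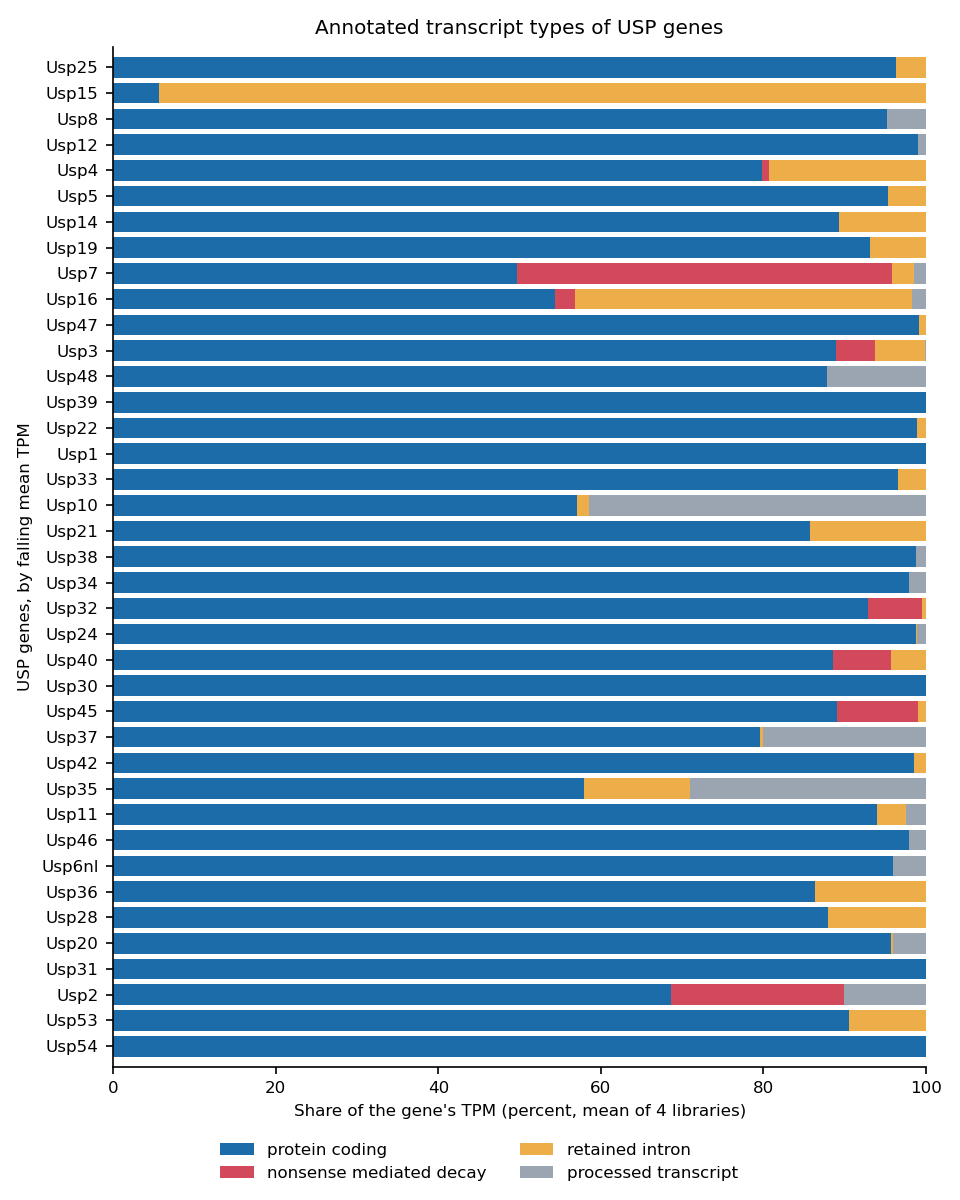
Share of each detected USP gene's TPM (percent, mean of 4 libraries) held by annotated transcript types, genes by falling mean TPM. Usp15 is almost wholly retained intron, and Usp7 has a large block of nonsense-mediated decay.

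Usp15, second of the family by TPM, had 90.9 ± 1.29% of it (SD, n = 4) in 2 transcripts annotated as retained intron. Usp15-208 had 46.4, 58.1, 66.5 and 39.2 TPM in replicates 1 to 4, and Usp15-209 had 39.9, 46.5, 41.3 and 30.5 TPM. The coding transcripts were far lower: Usp15-201 had 3.64, 3.75, 3.68 and 1.30 TPM, and Usp15-211 had 1.41, 1.83, 1.85 and 1.63 TPM. In each library both retained-intron transcripts were above each of these coding ones. By expected counts, which are not divided by length, the 2 transcripts held 80.9 ± 1.65% of the gene and the coding transcripts 16.3 ± 0.34%. In the second quantification, which derives from the reads directly, the 2 transcripts held 88.1 ± 1.80% of TPM and the coding ones 4.09 ± 0.51%.

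These transcripts share most of their bases with the coding messenger RNA, so the bases that set them apart are shown with the exon beside them. The capitals are bases outside every exon of Usp15-211, the coding transcript with the most codons, and the lower-case bases are in its exons (mm10, minus strand, chr10:123127840-123127885 for Usp15-208 and chr10:123124484-123124543 for Usp15-209).
Usp15-208: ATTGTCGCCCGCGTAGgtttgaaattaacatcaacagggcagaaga
Usp15-209: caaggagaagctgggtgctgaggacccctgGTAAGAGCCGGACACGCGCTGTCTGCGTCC
Usp15-208 is 1587 bases long, begins with 16 such bases and has 99.0% of its length in exons of Usp15-211. Usp15-209 is 2603 bases long and ends with 219 such bases, of which the first 30 are shown, and has 91.6% of its length in those exons. Usp15-211 is 11525 bases long and Usp15-201 4666. Together the 2 retained-intron transcripts cover 97.0% of the coding sequence of Usp15-211, 43.9% by Usp15-208 and 79.3% by Usp15-209, with 768 coding bases in both. How many reads lay on the bases unique to them is not in the quantification tables, and the part that read assignment plays in these shares was not tested.

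The place of Usp15 in the family therefore differed by measure. It was number 2 of the members by TPM, number 4 by CPM of expected counts, at 138 ± 26.9 CPM (SD, n = 4), and number 26 by TPM of protein-coding transcripts, at 5.21, 6.77, 5.79 and 4.72 TPM. Usp25 was the first member by each of these measures, with 328 ± 63.1 CPM and a coding level of 105 ± 22.8 TPM, and Usp8 had a coding level of 66.7 ± 4.70 TPM. Of the other detected members, Usp35 was the only one to stand 5 or more places lower by coding TPM than by all TPM, at number 34 against 29.

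**Figure D3:**
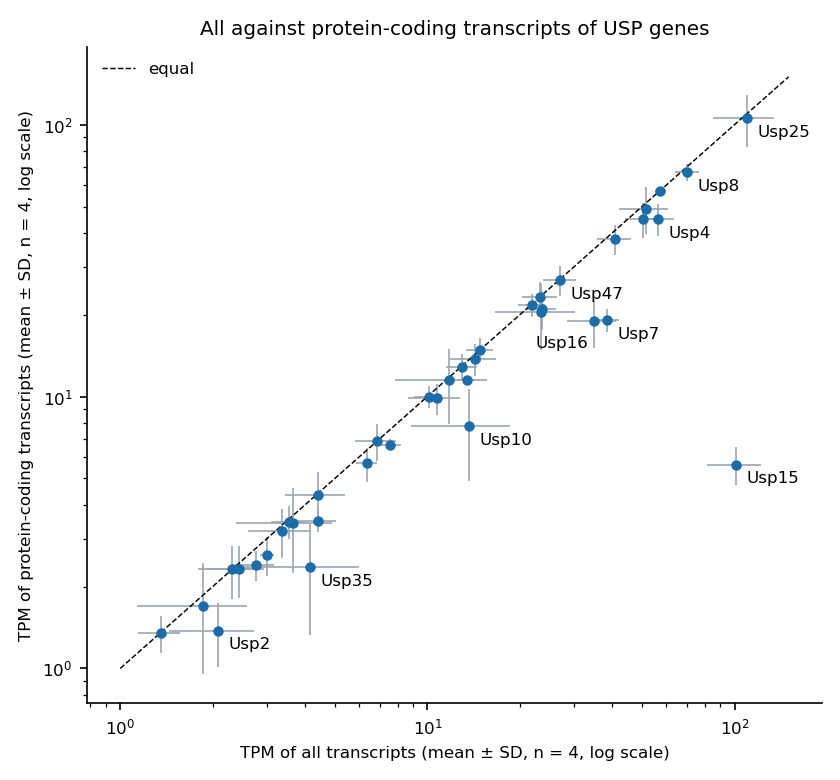
TPM of protein-coding transcripts against TPM of all transcripts of the 39 detected USP genes (means with SD over 4 libraries, both axes log); the dashed line marks equal values. Usp15 lies far under the line, and Usp7, Usp16 and Usp10 lie under it by less.

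Usp7 had its leading transcript in the nonsense-mediated decay class, whose members carry a stop codon that marks them for destruction. Usp7-206 had 17.3, 16.1, 21.3 and 16.6 TPM, or 46.1 ± 2.39% of the gene (SD, n = 4), and the coding Usp7-207 and Usp7-208 held 25.8 ± 5.70% and 23.9 ± 3.38%. In the second quantification Usp7-208 led with 43.7 ± 4.44%, and Usp7-206 held 33.6 ± 4.85%. Usp7-206 contains 95.8% of the coding bases of Usp7-208, and the 139 it lacks form 1 stretch, chromosome 16, 8711994 to 8712132, which is not a multiple of 3. Its own annotated reading frame has 92 codons, against 1103 in Usp7-208. In Usp16 retained-intron transcripts held 41.4 ± 4.87% of TPM but 8.24 ± 1.75% of expected counts. Their leader, Usp16-210, held 29.1 ± 5.48% of TPM, 14.6 ± 5.84% in the second quantification and 1.80 ± 0.44% of counts. In Usp10 transcripts annotated as processed transcript held 41.4 ± 9.30% of TPM but 18.3 ± 5.67% of counts, and Usp10-207 held 26.0 ± 8.28% of TPM, 7.77 ± 8.07% in the second quantification and 3.10 ± 1.43% of counts.

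The same shares were read for the catalytic codon. Protein-coding transcripts with the Cys box held a median of 89.2% of the TPM of the 37 members that have it. They held under 50% in 3 members, Usp15 at 4.66 ± 0.62%, Usp10 at 47.8 ± 15.0% and Usp7 at 49.7 ± 2.97% (SD, n = 4). In the second quantification the members under 50% were Usp15 at 3.88 ± 0.18% and Usp35 at 46.5 ± 6.12%, with Usp10 at 54.1 ± 11.9% and Usp7 at 57.1 ± 5.67%. Transcripts of any type that contain the codon's bases held 45.4 ± 2.03% in Usp15 and 97.3 ± 1.06% in Usp7. Usp15-209 spans the codon shown above, and Usp15-208 begins after it.

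The leading transcript was the same in all 4 libraries for 33 of 39 members, or 84.6%, beside 85.3% of all detected protein-coding genes. Comparing means, both quantifications named the same leader for 33 of 39. In Usp54 the leader followed the number of read files. Usp54-202 held 77.0% and 90.7% of TPM in replicates 3 and 4, which have 4 read files, against 0% and 15.0% in replicates 1 and 2, which have 6, where Usp54-201 held 85.5% and 85.0%. The second quantification showed the same leaders in each library. A split of this kind was present in 2.56% of detected members and 2.26% of detected protein-coding genes. In the second quantification, where Usp6nl also split, it was present in 5.13% of members and 2.83% of genes. The gene total of Usp54 did not follow the split in the first quantification, at 1.24, 1.33, 1.66 and 1.18 TPM in replicates 1 to 4. In the second it was higher in the libraries with 4 read files, at 0.933, 0.866, 1.64 and 1.08 TPM.

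The 2 quantifications of the same reads were compared by limma over all genes. At an adjusted p under 0.05 and a difference of at least 1 log2 unit, 0 of 41 members and 10.9% of 12299 genes were called. At any size 13 members and 39.5% of genes passed the adjusted p, and 18 of 41 members (43.9%) had an unadjusted p under 0.05, beside 56.0% of genes. Without the filter on low values 1 of 48 members, the germline Usp17la, which is near 0 in both, and 7.21% of genes were called. The median difference was -0.29 log2 units over all genes and -0.27 over members, second minus first, and 4 members (Usp35, Usp53, Usp14 and Usp6nl) were above 0. These are means over libraries, and the difference was not even over them. In each of the 10 most abundant members but Usp16, it was lower in replicates 1 and 2 than in replicates 3 and 4. The same over all genes was not taken. Usp25 and Usp8 serve as examples. Usp25 had 93.4, 73.6, 97.5 and 70.1 TPM in replicates 1 to 4 in the second quantification, against 135, 122, 103 and 78.8 in the first. Usp8 had 44.6, 44.9, 73.6 and 59.6 TPM, against 63.6, 72.5, 78.1 and 66.7. The cause was not tested. Relative to the median of all genes the members ran from -0.26 in Usp10 to 0.37 in Usp35. Across the detected members Spearman's rho between the quantifications was 0.995, and Usp25, Usp15 and Usp8 were the first 3 in both.

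**Figure D4:**
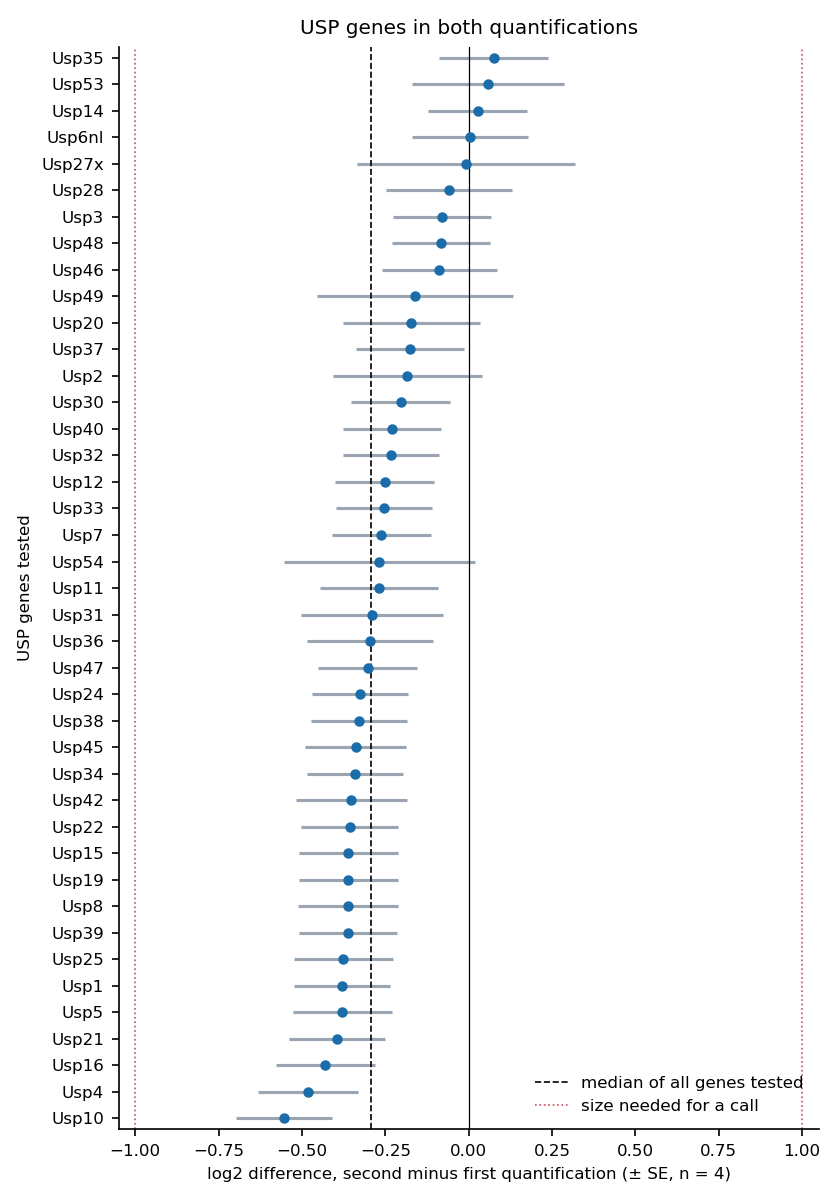
log2 difference in TPM, second minus first quantification, for the 41 USP genes tested (± SE over 4 libraries). All lie within the dotted lines at 1 log2 unit, most near the dashed median of all genes, with Usp10 lowest and Usp35 highest.

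Relatives within the family differed in level by up to several log2 units. For 18 fixed pairs the log2 ratio of TPM + 0.1 was taken in each library, and the sign was the same in 4 of 4 libraries for 16 pairs. The exact two-sided sign-flip p of each of these was 0.13, the smallest that 4 libraries allow, and 0.141 after adjustment over the pairs. Usp25 was above Usp28 by 5.24 ± 0.13 log2 units (SD, n = 4), Usp12 above Usp46 by 3.99 ± 0.15, Usp4 above Usp11 by 3.97 ± 0.47, and Usp22 above Usp27x by 4.34 ± 0.53. Usp3 was above Usp49 by 4.14 ± 0.16, Usp33 above Usp20 by 2.52 ± 0.27 and Usp16 above Usp45 by 2.42 ± 0.17. With counts not divided by length the ratio was 5.87 for Usp25 over Usp28, 3.22 for Usp3 over Usp49 and 0.85 for Usp16 over Usp45, and the last was 1.71 with protein-coding transcripts only. The ratio was negative for Usp36 over Usp42, at -0.51 ± 0.27, Usp35 over Usp38, at -1.71 ± 0.48 (-2.47 with protein-coding transcripts only), and Usp2 over Usp21, at -2.68 ± 0.53. For Usp53 over Usp54 it was 0.37 ± 0.62 and for Usp24 over Usp34 -0.17 ± 0.39, with a mixed sign in both. In the remaining pairs the partner was near or at 0. Usp5, Usp8, Usp31 and Usp37 had means of 51.4, 70.2, 2.31 and 4.41 TPM. Beside them Usp13 had 0.03 TPM, Usp50 had 0.23 TPM, and Usp43 and Usp29 had no count in the first quantification.

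In 2 pairs the sign depended on which transcripts were counted. Usp15 was above Usp4 by 0.83 ± 0.38 log2 units over all transcripts, and with protein-coding transcripts only the ratio was -2.98 ± 0.31 (SD, n = 4). Usp7 was above Usp47 by 0.51 ± 0.16 over all transcripts, against -0.49 ± 0.16 with protein-coding transcripts only. In the second quantification, all transcripts counted, Usp15 was above Usp4 by 0.95 ± 0.35. With counts not divided by length the ratio was 0.38 ± 0.42 for Usp15 over Usp4 and 0.16 ± 0.14 for Usp7 over Usp47 (exact sign-flip p = 0.25 each), and 0.35 ± 0.15 for Usp24 over Usp34.

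**Figure D5:**
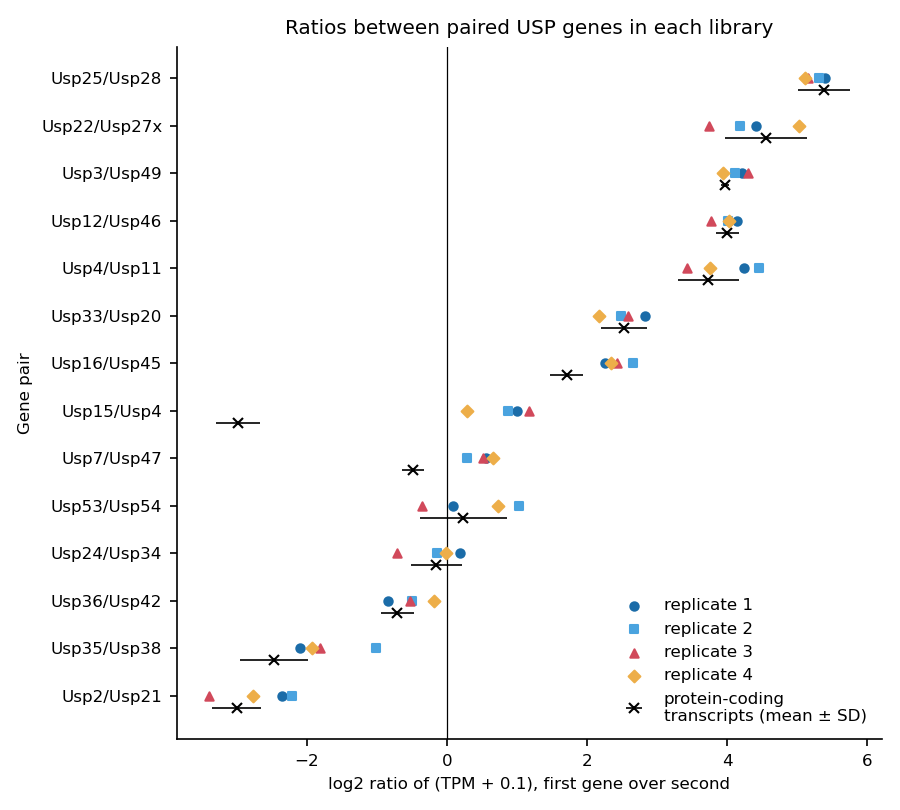
log2 ratio of TPM + 0.1, first gene over second, for the 14 pairs whose second gene had at least 100 counts; coloured points are the 4 libraries and crosses the mean ± SD with protein-coding transcripts only. Usp15/Usp4 and Usp7/Usp47 cross 0 between the points and the crosses.

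Some member levels share bases with neighbouring genes. Exons of 15 detected members overlap exons of another gene, over 10% of the member's exon bases in 4 of them. The same share over all detected genes was not taken, so these counts do not set the family apart. Usp14 shares 26.0% with Thoc1 on the opposite strand, which had 16.6 TPM, and Usp34 shares 11.6% with Ahsa2, which had 10.8 TPM. Usp38 and Usp33 overlap opposite-strand genes with under 1 TPM. Usp49, not detected by the rule, shares 51.2% with Gm20517 on the same strand. Whether counting used the strand is not given in the sources used here, so reads on shared bases cannot be told apart.

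The other genes of the pathway were read beside the family. Of 41 members of the ovarian tumour, UCH, Josephin, JAMM and MINDY or ZUFSP families 34 were detected, or 82.9%. The JAMM list also holds relatives that are not known as deubiquitinases (Prpf8, Psmd7, Cops6, Eif3f and Eif3h) and the Nedd8 protease Cops5. Without these 6, left out after their values were seen, 28 of 35 were detected, with a median of 21.3 TPM among those detected, against 25.02 TPM with them. Tnfaip3 (A20), the NF-kB inhibitor, had 523, 539, 306 and 662 TPM, above Usp25 in every library. Of 11 cofactors 10 were detected, among them Wdr48 at 22.8 ± 1.74 TPM and Wdr20 at 14.3 ± 1.18 TPM (SD, n = 4), the partners of Usp12 and Usp46, and Stam2 at 27.4 ± 4.38 TPM, a partner of Usp8. The cofactor Dmwd, which can take the place of Wdr20 with human USP12, was the only one called variable, with 13.3, 3.77, 2.81 and 0.87 TPM in replicates 1 to 4 (adjusted p = 3.52e-09, edgeR). The ubiquitin-activating enzyme Uba1 had 122 ± 17.8 TPM and Uba6 6.01 ± 0.42 TPM.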

How the data were processed

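PolyA RNA-seq gave 4 libraries of 1 group. Per the deposited records, reads were assigned on mm10 with GENCODE M21; the program names are not given in the sources used here. The authors deposited a gene table and a transcript table with expected counts, not normalised, and TPM, scaled by the authors for length and library size (first quantification), and another transcript table with estimated counts and TPM (second quantification). Counts on entries that name no gene were 0.079% to 0.293% and were left out.

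Expected counts were rounded for edgeR 4.0.16 (filterByExpr, TMM, trended dispersion) and DESeq2 1.42.0 in R 4.3.3, each fitted on all genes with Benjamini-Hochberg adjustment at 0.05. Log2((TPM + 0.1) ratios) were tested with limma 3.58.1 on genes with a mean of at least 1 TPM. The fits recovered 200 of 200 genes given a large change in simulated counts (edgeR) or simulated TPM (limma), with 3, 7 and 0 false calls. For edgeR these were picked from genes with many counts. Recovery of small changes, or of genes with few counts, was not tested. The common biological coefficient of variation was 22.4%. Counts on genes were 26613690, 23167140, 41453162 and 34946569 in replicates 1 to 4, and floors and intervals cover counting error only. Coding sequences and exons came from GENCODE M21 transcripts. Python 3.11.15, numpy 2.4.6, pandas 2.3.3, scipy 1.17.1 and matplotlib 3.10.9 were used.

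Named were the 10 most abundant members, those past a threshold, the 5 with the largest CV among those at a mean of at least 1 TPM, those under 50% coding, those without counts, both genes of each pair and every detected member by role. The members, lists and pairs were chosen with earlier results of these data known. Alternatives were another pseudocount, filter, normalisation and quantification, counts not divided by length, and leaving out each library.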

Additional observations from a re-analysis of the deposited data

Results flagged for a closer look

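Levels and protein-coding shares of the 39 detected members were searched for a library far from the other 3, by Dixon's criterion for 4 values. Of 78 groups 6 were picked. Chance picks about 1 in 20 groups of uncapped values, but shares end at 100%, so this rate does not hold for them and the 4 shares picked are given as values only. Usp3 had 19.7 TPM in replicate 1, against 24.4 to 25.3 TPM in the others, and its mean without replicate 1 was 24.9 TPM. Usp1 had 12.7 TPM in replicate 4, against 15.4 to 15.9 TPM in the others. The protein-coding share of Usp2 was 45.7% in replicate 2, against 73.2% to 78.8% in the others. The share of Usp24 was 95.8% and that of Usp46 91.5% in replicate 2, against at least 99.6% and 100% in the others. The share of Usp20 was 83.0% in replicate 3, against 100% in the others.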

How the results depend on the processing

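The count of detected members was 39 and ran from 26 (at 5 TPM) to 41 (at 0.5 TPM) over all alternatives. The count of 0 members called for variation between libraries held under every alternative, and leaving out a library gave 0 to 0. Between read files the count was 0 with the other normalisation, without the filter and with DESeq2, all libraries used. The read-file test was not run on the second quantification, so that count is for the first only. Between the quantifications 1 of 48 members, Usp17la, was called without the filter on low values, beside 7.21% of genes, at 0.0754, 0.0861, 0.255 and 0.148 TPM in the second quantification against 0, 0, 0 and 0.02 in the first. The median log2 level of all members, 2.17, was 2.44 with a pseudocount of 1 and 3.57 over members with a mean of at least 1 TPM, and 2.19 to 2.30 when a library was left out. The median coding share, taken in each library, was 92.0% in the second quantification, against 94.7 ± 1.91% in the first, and there the share was 4.09% for Usp15 and 57.1% for Usp7. Leaving out a library gave 5.41% to 5.88% for Usp15 and 48.8% to 50.8% for Usp7. With protein-coding transcripts only, an alternative chosen after seeing the data, the log2 ratio was -2.98 for Usp15 over Usp4 and -0.49 for Usp7 over Usp47. For Usp24 over Usp34 it was 0.35 with counts not divided by length, and -0.28 to 0.014 when a library was left out, positive only without replicate 3, the library in which Usp34 was highest. The cause was not tested, other than that those alternatives count other transcripts, lengths or samples. Of 39 member levels 35 were lower in the second quantification, 21 by more than their SD. The same count over all genes was not taken. The median difference was -0.29 log2 units over all genes and -0.27 over members, so a lower level there is not particular to the family. No paired analysis was possible because there is 1 group. Depth limits the members under 1 TPM.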
